A study of Mus musculus with 6 samples.

Results

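Nuclear receptors are ligand-regulated and orphan transcription factors that share a DNA-binding domain and, in most members, a ligand-binding domain. The 39 members described here are the listed nuclear receptor genes of the mouse, without Nr3c1, Nr3c2 and Nr1d1, and were found by gene symbol among the 23725 genes of the deposited table. Their RNA was compared between 3 libraries labelled Nr3c1IEC-/- and 3 labelled wild type, made from colonic epithelial cells that had been enriched on a Percoll gradient without culture from mice of the C57BL/6J background. The knockout animals carried B6-Cg-Nr3c1-Vil-Cre/ERT2, in which the villin promoter directs a tamoxifen-inducible Cre to the intestinal epithelium and thereby removes Nr3c1, the gene of the glucocorticoid receptor. Both groups were labelled as given tamoxifen intraperitoneally on 5 days in a row, with cells taken on day 7 after the first dose. The labels do not say whether wild-type animals carried the Cre transgene, give no age or sex, and do not say that each library came from its own animal, so the spread between libraries may be partly technical.

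Many receptors of this family bind DNA as a heterodimer with a retinoid X receptor, and the partner decides which ligand is sensed: fatty acids for the peroxisome proliferator-activated receptors (PPARs), oxysterols, bile acids, foreign compounds, vitamin D, retinoic acid or thyroid hormone. Others act as monomers or homodimers, among them the hepatocyte nuclear factor 4 (HNF4) pair, which maintains intestinal epithelial identity, and the NR4A receptors, which are induced within minutes by many stimuli and are not known to need a ligand. The comparison asks how the genes of these other receptors stood in libraries labelled knockout and wild type for the glucocorticoid receptor gene.

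The targeted gene Nr3c1 had 145, 123 and 175 normalized reads in the libraries labelled knockout replicates 1 to 3, against 1120, 967 and 197 in those labelled wild type replicates 1 to 3. The library labelled wild type replicate 3 was therefore near the knockout libraries at the targeted gene and went against its label there. The log2 change of Nr3c1 was -2.03 (SE 0.60, limma adjusted p = 0.0372), and -2.82 with that library left out (adjusted p = 0.000731). The call was lost when any 1 of the other 5 libraries was left out (adjusted p = 0.0631 to 0.125), and the labels do not name the part of the gene that Cre removes. All directions below count it among the wild-type libraries. The recovered reads numbered 10089313 to 12030844 per library. The 15 epithelial markers summed to between 375850 and 472440 normalized reads in knockout libraries and between 503980 and 534040 in wild-type libraries. Of these sums, Car1 alone held 22506 to 66598 in knockout libraries and 108150 to 165970 in wild-type libraries. The median log2 change of the 15 was -0.0002. None of the 15 was without reads. Of them 2 passed the test upward (13.3%, against 15% of all genes tested) and 5 downward (33.3%, against 15.4%). These counts were 1 and 3 when wild type replicate 1 or 2 was left out. Myeloid markers were higher in the knockout, with 8 of 12 raised in limma (66.7%, against 15% of all genes tested). In this list 0 were lowered (against 15.4%), also at an unadjusted p under 0.05 and by edgeR and DESeq2. Myeloid sums were 3361 to 8379 in knockout libraries against 660.2 to 1293 in wild-type libraries. Of 3 tested lymphocyte markers 1 was raised (33.3%, against 15% of all genes tested). Sums over the 11 lymphocyte markers in the table were 120.0 to 300 in knockout libraries against 42.0 to 142 in wild-type libraries. None of the 11 was without reads. Of 9 tested stromal, endothelial and muscle markers 2 were raised (22.2%, against 15% of all genes tested). The raised markers numbered 4 when knockout replicate 2 was left out. They numbered 1 when knockout replicate 1 or 3 or wild type replicate 1 or 2 was left out. Sums over 15 markers were 998 to 2934 in knockout libraries against 687 to 1273 in wild-type libraries. The endothelial gene Cdh5 had 6 reads over the knockout libraries and 0 over the wild-type libraries. Other endothelial genes went both ways, with 31 and 69 reads of Pecam1 and 6 and 3 of Kdr.

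Of the 39 nuclear receptor genes 32 were high enough to test, with a normalized value of at least 10 in at least 3 libraries, and 7 were too low to judge. Among the 32 tested, 15 fell in the knockout libraries, 0 rose and 17 did not pass the threshold (limma, adjusted p under 0.05 over all 12837 genes tested). The lowered members were 46.9% of those tested, whereas 15.4% of all genes tested were lowered and 15% raised. The lowered gene Nr2e3 reached 10 in the wild-type libraries alone, which favoured a fall. Without genes that passed the filter through either group alone, 14 of 31 members were lowered (45.2%), against 14.8% of 12498 genes. The median log2 change, knockout minus wild type, was -0.47 over the 32 members and 0.01 over all genes tested. For the 0 raised members, 1 gene, Esrra, had a positive change at an unadjusted p under 0.05, edgeR raised 0 (15.2% of all genes) and DESeq2 raised 1 (16.7% of all genes). The knockout values lay below all wild-type values for 18 of the 32 members and above them for 2, while among all genes tested 25.5% lay below and 25.2% above. A lower value in bulk RNA can come from fewer cells that express the gene or from less RNA per cell, which cannot be told apart here.

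**Figure D1:**
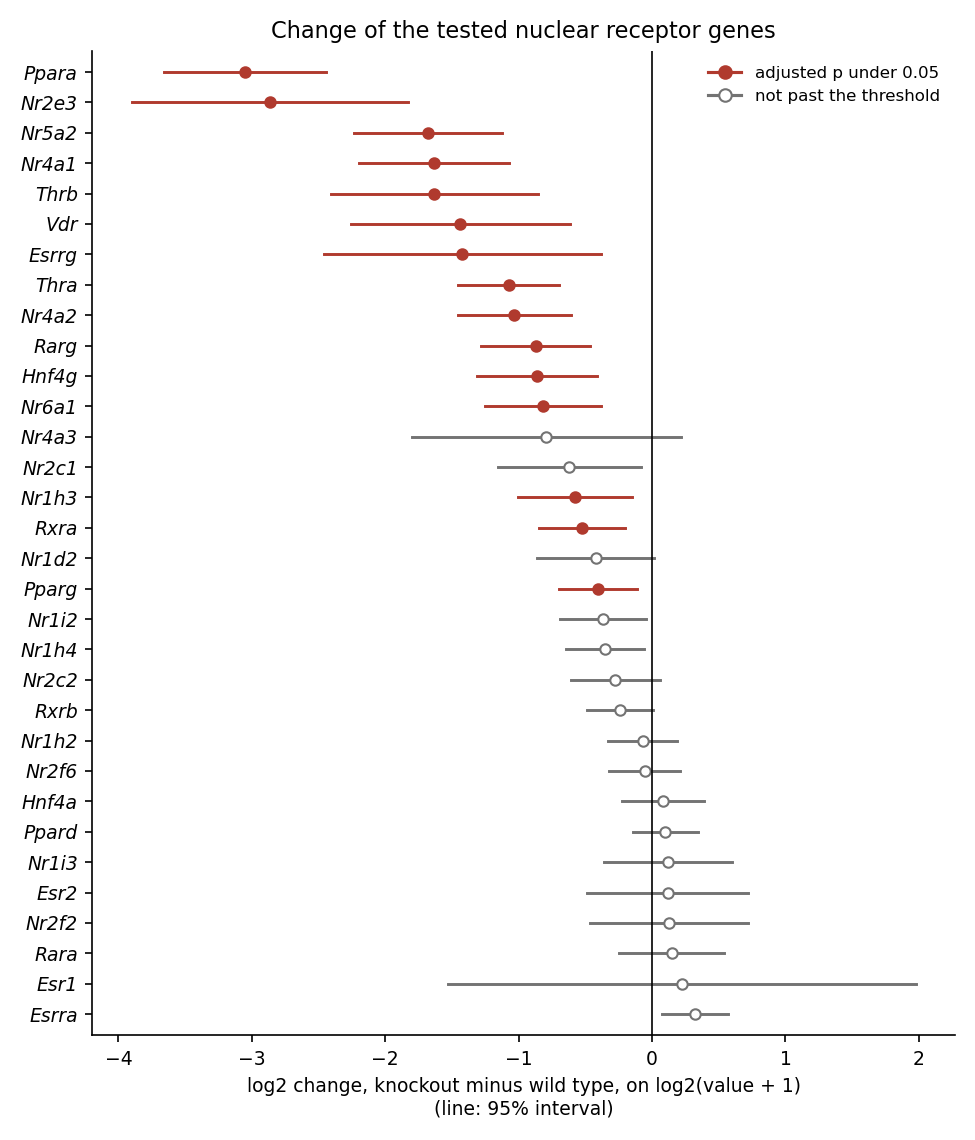
Log2 change (knockout minus wild type, on log2(value + 1)) of each of the 32 tested nuclear receptor genes on the horizontal axis, 1 gene per row, with lines for the 95% interval from limma; filled red points passed the adjusted threshold and open grey points did not. The 15 lowered genes run from Ppara at -3.05 to Pparg at -0.41, and Esrra at 0.32 was the highest.

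The library labelled wild type replicate 3 was the lowest of the wild-type libraries for 12 of the 15 lowered members, and for 67.3% of all 1979 lowered genes. With it left out the count of lowered members was again 15 (12.5% of all genes lowered), of which 13 were among the first 15, and the fall was larger for 12 of those 15. The lowered members numbered 8 when wild type replicate 1 was left out (7.42% of all genes lowered) and 10 when wild type replicate 2 was (7.5%). They numbered 12, 14 and 12 when knockout replicates 1, 2 and 3 were left out in turn (12.9%, 14.2% and 13.3%). Ppara, Nr5a2, Nr4a1, Thrb, Thra, Nr4a2 and Rarg were called in all 6 of these fits, as was Nr2e3, whose calls the filter favoured. The mean log2 level of 21 tested immune and stromal markers was 7.38, 6.24 and 6.94 in knockout libraries and 5.01, 5.52 and 6.11 in wild-type libraries. With that level as a covariate 1 of the 15, Ppara, passed the threshold, with 0.615% of all genes lowered and 0.576% raised, and all 15 changes stayed negative, but marker level and genotype did not overlap between the groups and cannot be told apart in 6 libraries.

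**Figure D2:**
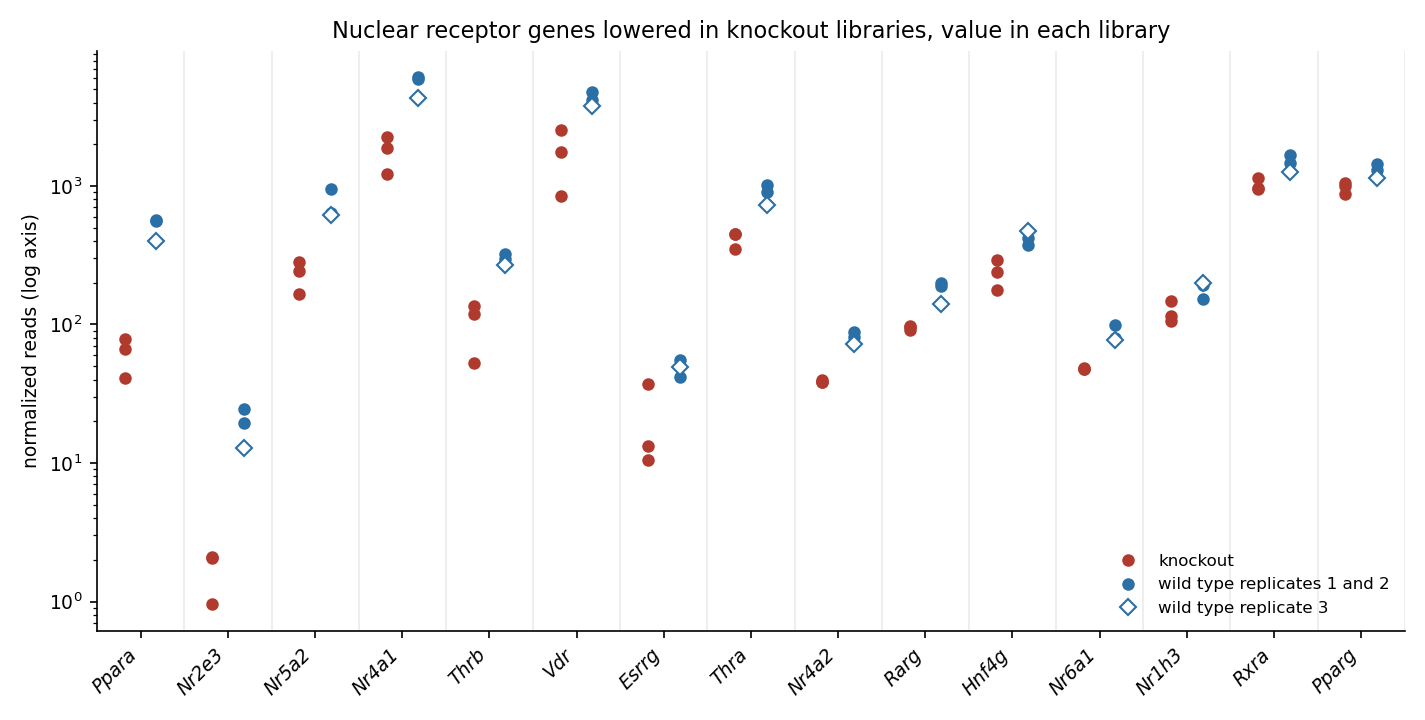
Normalized reads (log axis) of the 15 lowered nuclear receptor genes in each library. Genes are ordered from the largest to the smallest fall on the log2(value + 1) scale. Red points are knockout libraries, blue points wild type replicates 1 and 2, and open diamonds the library labelled wild type replicate 3. The groups do not overlap for any of the 15 genes, and the diamond is the lowest wild-type point for 12 of them.

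The fatty acid sensor Ppara, whose protein drives genes of fatty acid oxidation and ketogenesis, showed the largest fall of the family. Ppara had 40.9, 78.6 and 66.8 normalized reads in knockout libraries, against 558, 568 and 403 in wild-type libraries. The groups stood far apart, and the log2 change was -3.05 (SE 0.26, limma adjusted p = 0.000604). It was called with each library left out and with the marker covariate (log2 change -2.26, adjusted p = 0.0277). Pparg, a receptor abundant in colonic epithelium that also acts in fat cells and macrophages, had 1046, 876 and 996 normalized reads in knockout libraries, against 1435, 1309 and 1135 in wild-type libraries (log2 change -0.41, SE 0.13, limma adjusted p = 0.0435). The groups of Pparg did not overlap but stood close. That call was lost when knockout replicate 2 (adjusted p = 0.104) or 3 (0.0756) or wild type replicate 1 (0.155) or 2 (0.13) was left out, and with no filter on low values (0.0501). Ppard, the broadly expressed member of the subfamily, had 2171, 2078 and 2384 normalized reads in knockout libraries, against 2169, 1918 and 2104 in wild-type libraries. Its groups overlapped, and the change of 0.10 had an interval of -0.15 to 0.34 (limma adjusted p = 0.498).

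Of 24 tested PPAR target genes 14 fell (58.3%, against 15.4% of all genes tested) and 4 rose (16.7%, against 15%). The median log2 change of the list was -0.72 (11 to 14 lowered with 1 library left out). The fatty acid-binding protein gene Fabp2 changed by -2.40 on the log2 scale and Mgll, encoding monoacylglycerol lipase, by -1.54 (limma adjusted p = 0.000708 and 0.00107). The 4 raised genes were Creb3l3, Acadl, Slc25a20 and Fabp1, at log2 changes of 2.41, 0.88, 0.88 and 2.80. With the marker covariate 2 PPAR targets fell and 1 rose.

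The shared partner gene Rxra had 943, 968 and 1139 normalized reads in knockout libraries, against 1469, 1685 and 1254 in wild-type libraries. All knockout values were below all wild-type values, with a log2 change of -0.53 (SE 0.14, limma adjusted p = 0.0262). The call did not hold when knockout replicate 1 (adjusted p = 0.0528) or 2 (0.0607) or wild type replicate 1 (0.0879) or 2 (0.0978) was left out. Rxrb, the ubiquitous second retinoid X receptor, had 487, 513 and 467 normalized reads in knockout libraries, against 567, 623 and 548 in wild-type libraries. Those groups did not overlap either, but the change of -0.24 (interval -0.49 to 0.0035) did not pass the threshold (limma adjusted p = 0.116).

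Nr5a2, encoding liver receptor homolog 1, which supports crypt cell renewal and glucocorticoid synthesis in the intestine, fell in the knockout. It had 166, 282 and 243 normalized reads in knockout libraries, against 949, 641 and 622 in wild-type libraries. The highest knockout value was well below the lowest wild-type value, and the log2 change was -1.68 (SE 0.24, limma adjusted p = 0.00305), called with each library left out. Hnf4g, the HNF4 paralog expressed in gut epithelium, had 177, 239 and 291 normalized reads in knockout libraries, against 425, 375 and 469.9 in wild-type libraries (log2 change -0.86, SE 0.19, limma adjusted p = 0.0147). Its groups did not overlap, and the call was lost without wild type replicate 1 (adjusted p = 0.0572). Hnf4a, the paralog that maintains epithelial identity in liver and gut, had 9474, 11176 and 9909 normalized reads in knockout libraries, against 10209, 8804 and 9876 in wild-type libraries. These groups overlapped, with a change of 0.08 and an interval of -0.23 to 0.39 (limma adjusted p = 0.665), and the sign turned with quantile normalization (-0.052).

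The promoters of lowered members are shown where the 250 bases before an annotated start held a match to a nuclear receptor half-site (AGGTCA) or a glucocorticoid receptor half-site (AGAACA), on either strand, and overlapped no annotated exon. The sequences are from RefSeq on GRCm38.p6, 5′ to 3′ on the gene's strand, with matches in capitals (TGACCT and TGTTCT are the same letters on the other strand). The Nr5a2 windows are chr1:136960449-136960698 and, at a start further into the gene, chr1:136953631-136953880, both on the minus strand. The Rxra window at its downstream start is chr2:27709042-27709291 on the plus strand, and the Rarg window is chr15:102257523-102257772 on the minus strand.
Nr5a2, upstream start: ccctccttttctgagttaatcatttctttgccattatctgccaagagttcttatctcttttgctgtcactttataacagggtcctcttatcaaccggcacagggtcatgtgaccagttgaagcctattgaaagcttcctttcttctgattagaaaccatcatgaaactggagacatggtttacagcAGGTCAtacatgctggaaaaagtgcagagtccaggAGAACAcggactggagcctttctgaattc
Nr5a2, downstream start: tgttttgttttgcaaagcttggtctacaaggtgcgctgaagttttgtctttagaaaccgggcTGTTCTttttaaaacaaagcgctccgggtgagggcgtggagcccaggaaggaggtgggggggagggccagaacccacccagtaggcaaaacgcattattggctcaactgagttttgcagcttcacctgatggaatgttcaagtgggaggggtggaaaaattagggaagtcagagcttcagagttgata
Rxra, downstream start: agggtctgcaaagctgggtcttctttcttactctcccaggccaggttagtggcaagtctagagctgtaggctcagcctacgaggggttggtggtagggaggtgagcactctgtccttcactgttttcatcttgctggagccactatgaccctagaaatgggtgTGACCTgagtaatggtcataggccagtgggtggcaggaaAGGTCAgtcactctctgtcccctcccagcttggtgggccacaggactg
Rarg, upstream start: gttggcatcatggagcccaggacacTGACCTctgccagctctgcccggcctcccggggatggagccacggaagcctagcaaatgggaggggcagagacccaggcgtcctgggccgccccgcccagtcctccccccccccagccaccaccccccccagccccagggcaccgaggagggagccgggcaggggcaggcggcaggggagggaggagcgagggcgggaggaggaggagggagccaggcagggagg
The Nr5a2 windows hold 1 AGGTCA match and 2 AGAACA matches, the Rxra window 2 AGGTCA matches and the Rarg window 1. Promoter sequences were found for 37 of the 39 members and 13 of the 15 lowered ones, at 24 starts of the lowered genes. AGGTCA was in 7 of those 24 windows (29.2%), at Nr5a2, Nr6a1, Pparg, Rarg, Rxra and Thrb, and in 14.0% of all 32851 windows. AGAACA was in 3 of the 24 windows (12.5%), at Nr5a2 and Thrb, and in 16.1% of all windows. The full palindrome of AGAACA facing its own reverse complement across 3 free bases was in 0 of the 24 and in 3 of all windows, the direct repeat of AGGTCA with 1 free base between, which contains the half-site, in 0 of the 24 and in 11 of all windows, and the cyclic AMP response element TGACGTCA in 0 of the 24 and in 1.55% of all windows. Windows of 1 gene can overlap, and a match is a description of letters only.

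Target lists of Nr5a2 and HNF4 followed with different counts. Of 8 tested genes of steroid synthesis and NR5A2 targets 5 fell and 0 rose in limma, against 15.4% and 15% of all genes tested. In this list 2 were higher at an unadjusted p under 0.05, and 0 were raised by edgeR and 2 by DESeq2. The 2 higher in limma were Ccne1 and Ccnd1 (log2 change 1.15 and 0.98, limma adjusted p = 0.0543 and 0.0653). Among the genes too low to test were Cyp11a1, with 3 reads over knockout libraries and 1 over wild-type libraries, and Cyp11b1, with 3 and 0. The list median was -1.14. The steroid dehydrogenase genes Hsd3b1, Hsd3b2 and Hsd3b3, close paralogs whose reads may be shared, changed by -3.27, -3.55 and -3.44 on the log2 scale (limma adjusted p = 0.000663, 0.00102 and 0.00136). Hsd3b1 passed the filter through the wild-type libraries alone, and without it 4 of 7 fell, with a median of -0.67. Leaving out knockout replicate 1, 2 or 3 gave 1 raised gene each time. In the list of HNF4 targets 6 of 16 rose (37.5%, against 15% of all genes tested) and 1 fell (6.25%, against 15.4%). The list median was 0.24. The aminopeptidase gene Anpep and the apolipoprotein genes Apoa1 and Apoa4 rose by 2.46, 2.43 and 2.21 on the log2 scale (limma adjusted p = 0.00029, 0.000763 and 0.00125). Mep1a, encoding a brush border meprin subunit, was the 1 that fell (-1.83), and 2 were lowered when knockout replicate 2 was left out and 0 when wild type replicate 2 was.

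Both thyroid hormone receptor genes fell. Thra, whose product acts on crypt cell proliferation in the mouse gut, had 350.1, 450.1 and 450.6 normalized reads in knockout libraries, against 1015, 907 and 725 in wild-type libraries (log2 change -1.08, SE 0.16, limma adjusted p = 0.00381). Thrb, the second receptor of this hormone, had 52.4, 119 and 137 normalized reads in knockout libraries, against 297, 325 and 269.6 in wild-type libraries (log2 change -1.63, SE 0.33, limma adjusted p = 0.0106). Neither pair of groups overlapped, and both genes were called with each library left out. Thra shares 5.7% of its annotated exonic bases with Nr1d1 on the opposite strand, and reads of the pair cannot be told apart there in non-stranded libraries.

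Vdr, the receptor of vitamin D that controls intestinal calcium uptake, had 849, 2536 and 1764 normalized reads in knockout libraries, against 4197, 4753 and 3779.5 in wild-type libraries. The knockout libraries spread widely but all lay below the wild-type ones, with a log2 change of -1.44 (SE 0.35, limma adjusted p = 0.0202). The call was lost when wild type replicate 1 (adjusted p = 0.0668) or 2 (0.0732) was left out. Of 8 tested vitamin D receptor targets 4 fell and 0 rose in limma, against 15.4% and 15% of all genes tested. In this list 0 were higher at an unadjusted p under 0.05, and 0 were raised by edgeR and DESeq2. The median log2 change was -1.47 (3 to 5 lowered with 1 library left out). The list genes Cyp24a1, Trpv5 and Cyp27b1 were too low to test. They had 0, 0 and 2 reads over knockout libraries and 1, 0 and 5 over wild-type libraries. The 4 that fell were the plasma membrane calcium pump gene Atp2b1 (-0.86), the manganese exporter gene Slc30a10 (-4.37), the apical calcium channel gene Trpv6 (-3.71) and the claudin gene Cldn2 (-1.15), with limma adjusted p = 0.00358, 0.00366, 0.0121 and 0.0231. Trpv6 passed the filter through the wild-type libraries alone, and without it 3 of 7 fell, with a median of -1.46, while Slc30a10 reached 10 in 1 knockout library. Trpv6 averaged 3.69 ± 3.62 normalized reads in knockout libraries and 47.7 ± 21.2 in wild-type libraries (SD, n = 3 each).

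Among the retinoic acid receptors Rarg fell, with 91.2, 95.2 and 97.4 normalized reads in knockout libraries, against 189, 198.5 and 140.25 in wild-type libraries (log2 change -0.87, SE 0.18, limma adjusted p = 0.00987). Its 3 knockout libraries were nearly equal and below all wild-type libraries, and the call held with each library left out. Rara, the most widely expressed of the subfamily, had 204, 212 and 209 normalized reads in knockout libraries, against 176, 237 and 159 in wild-type libraries. Its groups overlapped and the change was 0.15 (interval -0.25 to 0.54, limma adjusted p = 0.528). Genes that supply or remove the ligand moved both ways. Of 14 tested 4 rose (28.6%, against 15% of all genes tested) and 5 fell (35.7%, against 15.4%). Their median log2 change was -0.16, with the same count lowered with each library left out (4 or 5 raised). Lrat, encoding the enzyme that esterifies retinol for storage, averaged 8.05 ± 4.66 normalized reads in knockout libraries and 164 ± 21.2 in wild-type libraries (SD, n = 3 each, limma adjusted p = 0.000814), reaching 10 in 1 knockout library. Retsat, encoding retinol saturase, changed by -2.13 on the log2 scale (limma adjusted p = 0.000707). Aldh1a3, encoding a retinaldehyde dehydrogenase that makes retinoic acid, was among the raised genes (log2 change 5.03) and its paralog Aldh1a1 among the lowered (-1.32).

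The NR4A genes are immediate early genes of the family. Nr4a1 had 1215, 1890.4 and 2256 normalized reads in knockout libraries, against 5931, 6107 and 4292 in wild-type libraries (log2 change -1.64, SE 0.24, limma adjusted p = 0.00353). Nr4a2, which was far less abundant, had 39.8, 38.3 and 38.2 normalized reads in knockout libraries, against 80.7, 88.0 and 72.9 in wild-type libraries (log2 change -1.03, SE 0.18, limma adjusted p = 0.0066). The groups of both genes stood apart, and both calls held with each library left out. Nr4a3 was low, with 29.4, 9.31 and 21.0 normalized reads in knockout libraries against 43.5, 28.4 and 26.4 in wild-type libraries, and its overlapping groups did not pass the threshold (log2 change -0.79, interval -1.80 to 0.22, limma adjusted p = 0.195). Of 12 other immediate early genes 9 fell (75%, against 15.4% of all genes tested) and 0 rose in limma (against 15%). In this list 0 were higher at an unadjusted p under 0.05, and 0 were raised by edgeR and DESeq2. The list median was -1.05 (7 to 11 lowered with 1 library left out). The smallest limma adjusted p were those of Egr2 (0.000445, log2 change -2.03), Fosb (0.000562, -2.21) and Jun (0.00335, -1.29).

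Among the receptors of sterols, bile acids and foreign compounds Nr1h3 fell, and the other tested members did not pass the threshold. Nr1h3, the liver X receptor (LXR) gene that is also active in macrophages, had 106, 147 and 115 normalized reads in knockout libraries, against 154, 194 and 199 in wild-type libraries (log2 change -0.58, SE 0.18, limma adjusted p = 0.0486). Its groups stood next to each other without overlap. The call was just past the threshold and was lost without any 1 library other than knockout replicate 2 (adjusted p = 0.0663 to 0.147), with no filter (0.0597), with quantile normalization (0.0714) and with library weights (0.0735). Nr1h2, the ubiquitous second LXR gene, had 772, 779 and 813 normalized reads in knockout libraries, against 739.8, 914 and 836 in wild-type libraries, with overlapping groups and a change of -0.07 (interval -0.33 to 0.19).

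The bile acid receptor gene Nr1h4 (FXR) had 1157, 1188 and 1341 normalized reads in knockout libraries, against 1753, 1618 and 1363 in wild-type libraries. Its groups did not overlap, but the log2 change of -0.36 missed the threshold (interval -0.65 to -0.06, limma adjusted p = 0.0664) and passed it without the library labelled wild type replicate 3 (-0.46, adjusted p = 0.042) and with quantile normalization (-0.43, adjusted p = 0.041). Nr1i2, the pregnane X receptor (PXR) gene, had 657, 869 and 822 normalized reads in knockout libraries, against 1010.4, 1098 and 911 in wild-type libraries (log2 change -0.37, interval -0.69 to -0.05, limma adjusted p = 0.0778). The groups of Nr1i2 did not overlap either. It missed the threshold with each library left out and with quantile normalization (limma adjusted p = 0.0553). Nr1i3, the constitutive androstane receptor (CAR) gene, had 83.9, 124 and 112 normalized reads in knockout libraries against 82.8, 99.7 and 110.2 in wild-type libraries (log2 change 0.12, interval -0.36 to 0.60). The groups of Nr1i3 overlapped, and 74.9% of its annotated exonic bases are shared with Tomm40l on the opposite strand, where reads of the pair cannot be told apart.

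Of 16 tested PXR and CAR targets 7 fell (43.75%, against 15.4% of all genes tested) and 2 rose (12.5%, against 15%). The list median was -0.65. Cyp3a11, Cyp3a25 and Cyp2b10 of the list were too low to test, with 9, 12 and 15 reads over knockout libraries and 3, 2 and 4 over wild-type libraries. Cyp3a13 did not pass the threshold (log2 change -0.36, limma adjusted p = 0.567). The cytochrome P450 genes Cyp2c65 and Cyp2c55 changed by -3.20 and -6.41 on the log2 scale and the sulfotransferase gene Sult1a1 by -4.93 (limma adjusted p = 0.000524, 0.00158 and 0.00169), and the glutathione transferase paralogs Gsta1 and Gsta2 were the 2 raised. Leaving out any 1 of the libraries labelled wild type gave 4 lowered targets each time. Without knockout replicate 1, 2 or 3 the lowered targets numbered 5, 10 and 5. Of 15 tested LXR and FXR targets 3 rose (20%, against 15% of all genes tested) and 2 fell (13.3%, against 15.4%). These shares were near those of all genes tested. The list median was 0.12, and the counts were the same with each library left out. The partner subunits of the basolateral bile acid exporter moved in opposite directions, Slc51b by 1.06 and Slc51a by -2.24 on the log2 scale (limma adjusted p = 0.000981 and 0.00184). The phosphodiesterase gene Smpdl3a changed by 0.96 (limma adjusted p = 0.00358).

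**Figure D3:**
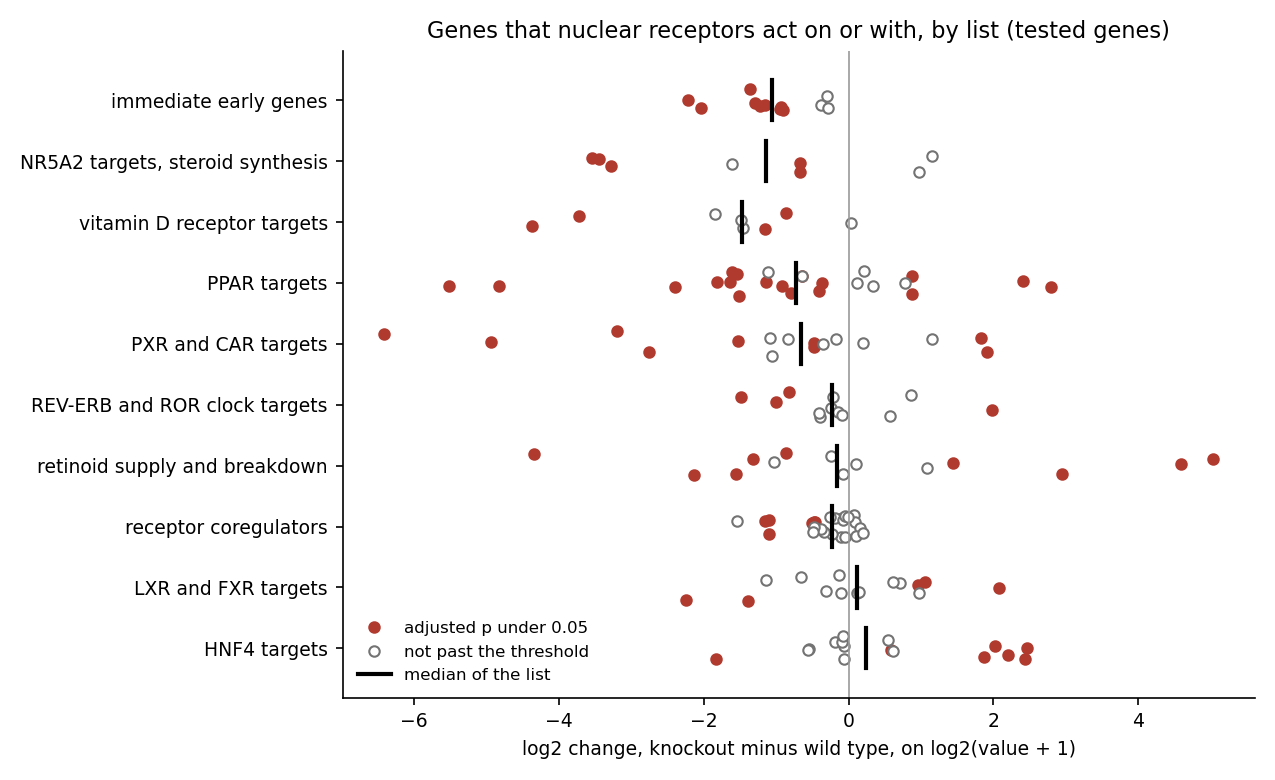
Log2 change (knockout minus wild type, on log2(value + 1)) of the tested genes in 10 lists of genes that nuclear receptors act on or with, 1 point per gene and 1 row per list; filled red points passed the adjusted threshold, open grey points did not, and black bars mark list medians. Medians run from -1.47 for vitamin D receptor targets to 0.24 for HNF4 targets, against 0.01 for all genes tested.

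Of the oestrogen-related receptors, orphan regulators of mitochondrial genes, Esrrg fell and Esrra missed the threshold on the other side. Esrrg had 10.5, 37.2 and 13.4 normalized reads in knockout libraries, against 55.2, 42.0 and 49.2 in wild-type libraries (log2 change -1.42, SE 0.45, limma adjusted p = 0.0466). Knockout replicate 2 stood just under the wild-type values, and the call was lost without any 1 library other than that one (adjusted p = 0.0976 to 0.137), with edgeR (0.0698) and with no filter (0.057). Esrra had 2354, 2817 and 2493 normalized reads in knockout libraries, against 1969, 2053 and 2105 in wild-type libraries. All knockout values were above all wild-type values, but the log2 change of 0.32 (interval 0.07 to 0.57) missed the threshold (limma adjusted p = 0.0565) and passed it with DESeq2 (adjusted p = 0.0402), with library weights (0.0279, where 16% of all genes rose) and without knockout replicate 1 (0.041).

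Of the sex steroid receptors, Esr1, oestrogen receptor alpha, had 106, 102 and 87.8 normalized reads in knockout libraries, against 168, 19.6 and 177 in wild-type libraries. Wild type replicate 2 was far below every other library, so that the interval ran from -1.53 to 1.98 around a change of 0.22 (limma adjusted p = 0.836). Without that library the change was -0.80 (adjusted p = 0.0328). Esr2, oestrogen receptor beta, the form usually reported in colonic epithelium, had 17.8, 19.7 and 19.1 normalized reads in knockout libraries, against 17.0, 17.6 and 17.3 in wild-type libraries. The groups of Esr2 did not overlap but differed by 0.12 only (interval -0.49 to 0.72, limma adjusted p = 0.751).

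Among the orphan receptors Nr2e3, a regulator of rod photoreceptor identity in the retina, fell at low levels. Nr2e3 had 2.10, 2.07 and 0.955 normalized reads in knockout libraries, against 24.4, 19.6 and 12.75 in wild-type libraries, which were 5 and 57 reads in all (log2 change -2.86, SE 0.45, limma adjusted p = 0.00417). It passed the filter through the wild-type libraries alone, which favoured a fall, so that its p is given as a description and not as support. Nr6a1, the germ cell nuclear factor gene, had 48.2, 47.6 and 47.7 normalized reads in knockout libraries, against 79.6, 99.7 and 77.4 in wild-type libraries (log2 change -0.82, SE 0.19, limma adjusted p = 0.0156). Its groups stood apart, and the call was lost when wild type replicate 1 (adjusted p = 0.051) or 2 (0.0669) was left out.

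The other tested orphan receptors did not pass the threshold and their groups overlapped. Nr2c1, the testicular receptor 2 gene, had 77.6, 132 and 94.5 normalized reads in knockout libraries, against 181.5, 149.6 and 131 in wild-type libraries (log2 change -0.62, limma adjusted p = 0.0776, and 0.0302 without knockout replicate 2). Its paralog Nr2c2 had 326, 363 and 443 normalized reads in knockout libraries, against 418, 449.8 and 495 in wild-type libraries (-0.28, limma adjusted p = 0.177), and shares 31.2% of its exonic bases with opposite-strand genes. The COUP transcription factor gene Nr2f2, better known from stromal and venous cells, had 108, 75.5 and 119 normalized reads in knockout libraries, against 91.3, 116 and 70.1 in wild-type libraries (log2 change 0.13, limma adjusted p = 0.721). Its relative Nr2f6 had 884, 1108 and 909.8 normalized reads in knockout libraries, against 995, 1024 and 984 in wild-type libraries (-0.06, limma adjusted p = 0.731). Nr2f6 shares 54.4% of its exonic bases with Ocel1 on the opposite strand, and the sign of Nr2f2 and of Nr2f6 turned with single libraries left out. Nr1d2, the REV-ERB beta gene of the circadian clock, had 276, 317 and 368.5 normalized reads in knockout libraries, against 508, 461 and 331.5 in wild-type libraries. The library labelled wild type replicate 3 lay within the knockout range there (log2 change -0.42, limma adjusted p = 0.122), and without it the change was -0.60 (adjusted p = 0.0408).

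The 7 members too low to judge had between 0 and 56 recovered reads over all 6 libraries. Rora, a clock and lymphoid regulator, had 34 reads over the knockout libraries and 22 over the wild-type libraries, and Rarb had 12 and 16. Rxrg had 10 reads in knockout libraries and 5 in wild-type libraries, Rorb 6 and 3, and Nr2f1 4 and 1. Nr0b2, the small heterodimer partner gene that FXR induces in liver, had 0 reads in knockout libraries and 1 in wild-type libraries, and the progesterone receptor gene Pgr had 0 in each group. A count of 0 over the libraries of a group allows up to 3 reads over those libraries together. With the filter at 10 no difference was tested for the 7 at this depth. Outside the 39, 4 of 9 further receptor genes were tested, and 3 were lower in the knockout (75%, against 15.4% of all genes tested). These were Nr3c2, Nr1d1 and Nr3c1, the last being the targeted gene itself. Leaving out wild type replicate 1 gave 0 lowered and leaving out wild type replicate 2 gave 1.

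Levels of different receptor genes were compared per kb of the longest annotated coding transcript. Hnf4a stood highest, at 2335 ± 203 normalized reads per kb in knockout libraries and 2208 ± 168 in wild-type libraries (SD, n = 3 each). In the wild type its range overlapped that of Nr4a1, which had 700.0 ± 207 normalized reads per kb in knockout libraries and 2132 ± 392 in wild-type libraries. Vdr followed with 393 ± 193 in knockout libraries and 971 ± 112 in wild-type libraries, where it overlapped Esrra (1139 ± 106 in knockout libraries and 911 ± 30.6 in wild-type libraries). Nr1h4 came next in the wild type, followed by Ppard and Pparg, which overlapped each other, and by Nr2f6, Nr1h2, Nr1i2, Thra and Rxra, each of which overlapped its neighbour. Hnf4g, Nr5a2 and Ppara formed the next overlapping run. In order of mean level per kb among the 39, Ppara stood at place 24 in knockout libraries and 16 in wild-type libraries, Vdr at 9 in knockout libraries and 3 in wild-type libraries, and Nr5a2 at 19 in knockout libraries and 15 in wild-type libraries.

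**Figure D4:**
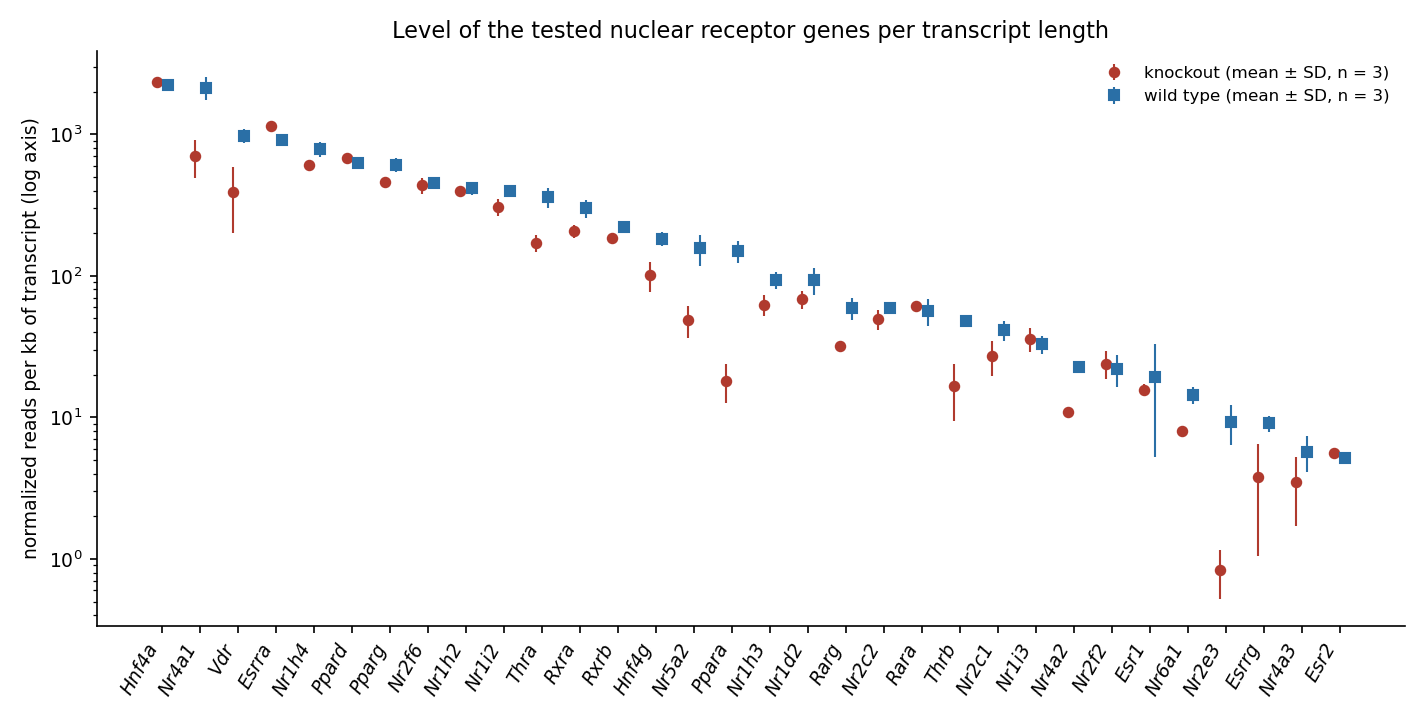
Normalized reads per kb of transcript (log axis, mean and SD of 3 libraries per group) of the 32 tested nuclear receptor genes, ordered by their wild-type mean, with knockout in red at left and wild type in blue at right. Levels span Hnf4a (2335 in knockout, 2208 in wild type) to Esr2 (5.61 in knockout, 5.14 in wild type).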

How the data were processed

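The authors deposited a normalized signal: counts scaled by library size factors, as the table's own name and its values show. The submitters' processing notes name FastQC, TopHat, DESeq2 and mm10, without versions. The labels' protocols give non-stranded TruSeq libraries, and which read counter or annotation was used is not given in the sources used here. All values (100% within 0.001) were whole multiples of 1 step per library, which gave the recovered reads. Of 23725 Entrez numbers 23666 matched a RefSeq symbol (GRCm38.p6).

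Tests used limma 3.58.1 in R 4.3.3 with an intensity-dependent prior on log2(value + 1), a scale that understates changes of low genes, keeping the 12837 genes that reached 10 in 3 or more libraries, with Benjamini-Hochberg adjustment over all of them and a threshold of 0.05. Every adjusted p is from this fit unless another tool is named. Intervals are 95%. edgeR 4.0.16 and DESeq2 1.42.0 were run on recovered reads, edgeR with the authors' size factors. Members and lists were chosen with earlier results of these data known. All members are accounted for, and from each list the 3 genes with the smallest adjusted p are named; some of these are not reported here, and further list genes were chosen after their values were seen. The fit was tested on simulated data. Replicate numbers follow accession order and pair nothing, and no batch is labelled. Exon overlap and transcript length are from GENCODE M21 (GRCm38). Intervals and floors from reads cover counting error only.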

Additional observations from a re-analysis of the deposited data

How the results depend on the processing

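Under 16 other settings (pseudocounts of 0.5 and 5, no filter, a filter at 50, TMM, quantile normalization, edgeR, DESeq2, library weights, the marker covariate and each library left out) the members raised numbered 1 with DESeq2 and 1 with library weights. The members lowered numbered 1 with the covariate, where 74 of all genes were raised and 79 lowered. With 1 library left out, members raised ranged from 0 to 1 and members lowered from 8 to 15, all genes raised from 970 to 1782 and all genes lowered from 953 to 1825, each lowest without wild type replicate 1 except members raised. Signs turned for members that had not passed the threshold. With the covariate Nr1d2 was at 0.015, Nr2c1 at 0.10 and Nr2f6 at 0.16, with quantile normalization Hnf4a was at -0.052, and Esr1 was at -0.30 with edgeR and -0.30 with DESeq2. With 1 library left out Nr1h2 ranged from -0.15 to 0.0025, Nr1i3 from -0.0017 to 0.28, Nr2f2 from -0.056 to 0.32, Nr2f6 from -0.16 to 0.0052 and Esr1 from -0.80 to 0.76. Over the 32 tested members and Nr3c1, 456 of 524 changes kept direction and side of the threshold, 49 lost the call, 7 gained one and 12 turned sign; the cause was not tested. No paired analysis was possible because the labels give no replicate numbers shared between groups. Depth limits the 7 untested members, and Nr2e3, Esr2, Nr4a3 and Esrrg, with 62, 109, 158 and 209 reads in all.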

Other observations

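Coregulators, which nuclear receptors recruit to activate or silence genes, were measured in the same libraries. Of 25 coregulator genes, all tested, 6 fell (24%, against 15.4% of all genes tested) and 0 rose (against 15%). Their median log2 change was -0.22. The lowered numbered 3 when knockout replicate 2 or wild type replicate 1 or 2 was left out and 0 with the marker covariate. The 0 raised in limma stood beside 0 higher at an unadjusted p under 0.05 and 0 raised by edgeR and DESeq2. Sirt1, encoding a deacetylase, averaged 158 ± 25.0 normalized reads in knockout libraries and 349.9 ± 29.9 in wild-type libraries (SD, n = 3 each, limma adjusted p = 0.00244). The corepressor gene Nrip1 averaged 419.9 ± 98.0 in knockout libraries and 883 ± 68.6 in wild-type libraries, and Ppargc1b, encoding a coactivator of the oestrogen-related receptors and PPARs, averaged 277 ± 59.9 in knockout libraries and 590.3 ± 97.3 in wild-type libraries (SD, n = 3 each, limma adjusted p = 0.00407 and 0.0065). The other 3 lowered were the corepressor gene Ncor1 and the coactivator genes Ncoa2 and Crebbp, at log2 changes of -0.50, -0.47 and -0.47. Ppargc1a, the paralog of Ppargc1b, averaged 158 ± 114 in knockout libraries and 333 ± 25.7 in wild-type libraries and did not pass the threshold (limma adjusted p = 0.129).

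Of 12 tested clock genes that REV-ERB and ROR receptors act on, 3 fell (25%, against 15.4% of all genes tested) and 1 rose (8.33%, against 15%). The list median was -0.23. Nfil3 (log2 change -1.48), Arntl and Npas2 fell. Ciart rose (1.98, limma adjusted p = 0.0471) at 78 reads over knockout libraries and 20 over wild-type libraries. With no filter, or with a filter at 50, 0 genes of the list were raised. There were 2 raised when knockout replicate 1 was left out and 0 when knockout replicate 2 or 3 or wild type replicate 1 or 2 was.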
